A study of Mus musculus with 2 samples.

Results

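The insulin-like growth factor (IGF) system was examined through 10 genes of the 18193 that had a probe set with a single gene symbol on the arrays. They were the ligands Igf1 and Igf2, the receptors Igf1r and Igf2r, the binding proteins Igfbp2, Igfbp3, Igfbp4, Igfbp5 and Igfbp6, and the protease Pappa. The genes were chosen by name, with the signals and log2 ratios of these 2 arrays already known, so every value below is a description. All 28 probe sets annotated with exactly 1 of these symbols were kept, and 1 further probe set annotated to a member and to another gene was left out. The cells were ATDC5, a clonal chondrogenic mouse line derived from a teratocarcinoma. CHX+Nell-1 cells were serum-starved, given the protein synthesis inhibitor cycloheximide (CHX) at 10 µg/ml for 30 min, and then given recombinant human Nell-1, a secreted glycoprotein, at 100 ng/ml for 30 min. CHX+PBS cells had the same starvation and the same CHX, followed by PBS for 30 min. Each group was 1 array, so the variation from culture to culture is unknown and no difference was tested. In a bulk RNA sample, fewer cells of a type and less RNA per cell cannot be told apart. The stated aim of the comparison was to find genes that respond without new protein.

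IGF-I and IGF-II are small secreted peptides that act mainly through the tyrosine kinase receptor encoded by Igf1r. The receptor encoded by Igf2r has no kinase: it takes IGF-II into the cell for degradation and carries enzymes tagged with mannose 6-phosphate to lysosomes. Binding proteins hold most extracellular IGF, and the metalloprotease PAPP-A, the product of Pappa, cuts IGFBP-4 and some other binding proteins and so releases IGF near the receptor. In the growth plate, IGF signalling promotes the proliferation and enlargement of chondrocytes.

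With signals as deposited, the brightest probe sets of 2 binding proteins were lower and that of the protease was higher on the CHX+Nell-1 array. These passed 1.5-fold, a difference seen downwards in 7.53% and upwards in 4.56% of all genes above the median signal. The binding proteins did not share 1 direction. Igfbp5 was 1.64-fold higher on 1422313_a_at and nearly equal on its brightest probe set. No ligand or receptor probe set passed 1.5-fold, though the 4 Igf1 probe sets disagreed in direction. These calls depended on the scaling. Centred on control RNAs added before labelling, the log2 ratios of the brightest Igfbp2 (-0.44) and Igfbp4 (-0.38) probe sets fell short of 1.5-fold. Those of Igf1 (0.79) and Igf1r (0.72) then passed it. So did 36.2% of all probe sets above the median signal, upwards. Probe sets 1434413_at of Igf1 (-0.04) and 1446303_at of Igf1r (0.21) did not, while 1437406_x_at of Igfbp4 (-0.99) stayed 1.5-fold lower. For Igfbp2, Igfbp4 and Igfbp5, the RefSeq sequence before the transcription start (build GRCm38.p6) is shown because these binding proteins had probe sets past 1.5-fold, the threshold that the submitters state. Igfbp2 and Igfbp5 are adjacent genes on chromosome 1, on opposite strands. Each run covers the 250 bases before the annotated start, 5′ to 3′ on the gene's strand, and capitals mark a TATA box (TATAAA) or a GC box (GGGCGG), searched on both strands.
Igfbp2, chr1:72824230-72824479, plus strand: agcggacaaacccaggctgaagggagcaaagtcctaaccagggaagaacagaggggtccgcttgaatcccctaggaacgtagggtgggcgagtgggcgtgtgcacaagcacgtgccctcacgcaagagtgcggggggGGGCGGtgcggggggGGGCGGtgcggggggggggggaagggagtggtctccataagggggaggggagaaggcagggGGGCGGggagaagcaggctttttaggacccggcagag
Igfbp4, chr11:99040994-99041243, plus strand: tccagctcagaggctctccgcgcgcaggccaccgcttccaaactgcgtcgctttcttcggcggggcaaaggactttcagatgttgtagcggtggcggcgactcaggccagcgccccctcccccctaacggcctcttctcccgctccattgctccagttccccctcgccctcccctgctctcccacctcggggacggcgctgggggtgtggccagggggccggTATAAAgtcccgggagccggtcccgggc
Igfbp5, chr1:72874866-72875115, minus strand: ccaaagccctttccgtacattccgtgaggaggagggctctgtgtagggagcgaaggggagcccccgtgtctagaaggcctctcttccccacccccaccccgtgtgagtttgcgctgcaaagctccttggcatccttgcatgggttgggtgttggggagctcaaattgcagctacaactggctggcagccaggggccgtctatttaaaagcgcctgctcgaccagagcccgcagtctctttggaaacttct

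The table held 13 promoters for 9 of the 10 genes and none for Pappa, so no sequence of Pappa could be shown. Igfbp4 had 1 TATA box, which began 28 bases before its start, and Igfbp6 had 1 that began 148 bases before. A TATA box was present in 12.4% of 32851 mouse promoters, searched like those of the members over the 250 bases before the start. The first Igfbp2 promoter and the Igf2r promoter each had 3 GC boxes. The Igf1r promoter had 2, an Igf2 promoter had 2 and another Igf2 promoter had 1, while 32.7% of all promoters had at least 1. That Igfbp2 promoter also held 1 E-box (CACGTG), which 6.02% of all promoters had, and the Igf2r promoter held 2. An AP-1 motif (TGANTCA) was matched once in the Igf1 promoter and once in the second Igfbp2 promoter, against 6.75% of all promoters. None of these matches overlapped a match to another motif. The Igfbp5 window held none of the 4 motifs as spelled here. A match is a run of letters and was not tested for function.

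The arrays report each transcript through probe sets, groups of short probes, and each value is a MAS5 signal on a linear scale. Signals of different probe sets are not on a common scale and are not compared with each other. Of the 28 probe sets, 25 had a mean signal over both arrays at or above 64.3, the median of all 45037 non-control probe sets. A log2 ratio below is the CHX+Nell-1 signal over the CHX+PBS signal. Of the 25 probe sets, 3 were at least 1.5-fold higher and 5 at least 1.5-fold lower with Nell-1, while on the whole array 5.97% of 22519 such probe sets were higher and 8.48% were lower. Over all 28 probe sets, 5 were higher and 5 lower, beside 17.5% higher and 23.1% lower on the whole array. The median log2 ratio of the 25 was -0.02, and that of the 22519 was -0.03. Taking each gene by its brightest probe set, 1 gene (Pappa) was higher, 2 (Igfbp2 and Igfbp4) were lower and 7 were neither. Among the 11600 genes that passed the same filter, 4.56% were higher by 1.5-fold and 7.53% were lower.

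**Figure D1:**
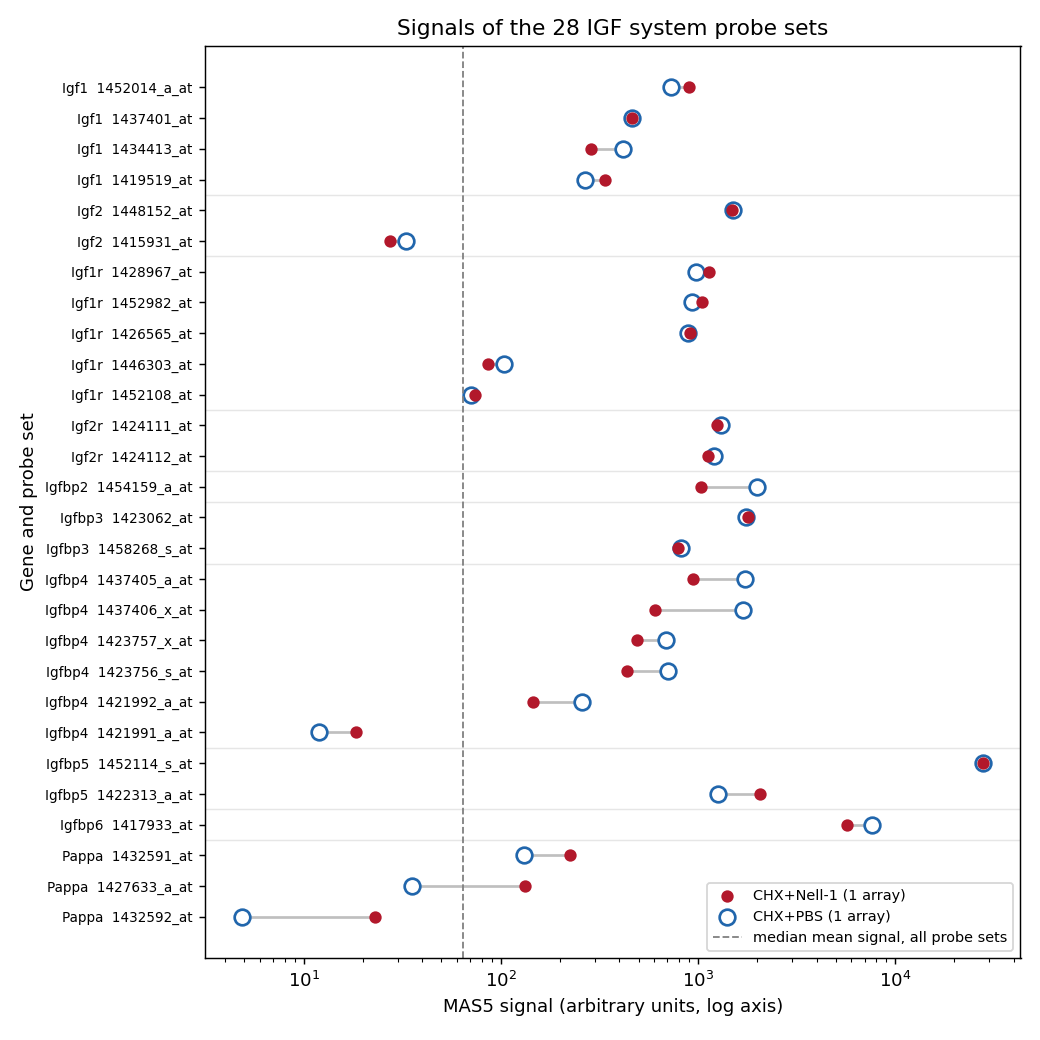
MAS5 signal (log axis) of each of the 28 IGF system probe sets, with filled circles for the CHX+Nell-1 array, open circles for the CHX+PBS array and a dashed line at 64.3, the median mean signal of all probe sets. The 5 Igfbp4 probe sets right of the dashed line and the Igfbp2 probe set have the filled circle on the left, and the 3 Pappa probe sets have it on the right.

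Control RNAs also differed between the arrays. The 24 probe sets for poly-A spike-ins, bacterial RNAs added before labelling, were all lower on the CHX+Nell-1 array, with log2 ratios of -0.20 or below and a median of -0.49. The 8 of them at the 5′ ends had a median of -0.70, and the 8 at the 3′ ends had -0.43. For the 18 probe sets of hybridisation spike-ins, another kind of control, the median was -0.18. The ratio of 3′ to 5′ control signal for Actb was 1.28 with Nell-1 and 1.32 with PBS, and for Gapdh it was 0.858 with Nell-1 and 0.848 with PBS. The 9 measured reference genes had a median log2 ratio of 0.02 and none passed 1.5-fold. They ranged from -0.24 to 0.58, and the highest, Tfrc, lay just short of 1.5-fold. What part the spike-in difference has in the IGF values was not tested. Centred on the poly-A spike-ins, 1.5-fold higher probe sets at or over the array median numbered 8158 and lower ones 499, against 1344 and 1910 as deposited. Of 10 chondrogenic markers, 7 were above the median signal, with a median log2 ratio of 0.13, and 2 of the 7 were at least 1.5-fold higher with Nell-1 and none lower, beside 4.56% of all genes above the median signal that were higher and 7.53% that were lower. Named after their values were seen, the 2 were Sox6 (0.70) and Acan (0.74), while Col2a1 was at 0.41 and Sox9 at -0.39. The 3 below the median signal, Matn1 (-0.89), Comp (-2.16) and Hapln1 (-1.66), were all lower with Nell-1. List sums, given only to set the same probe sets side by side on both arrays, follow the brightest probe sets. For the chondrogenic list the sum was 5717 with Nell-1 and 6049 with PBS, of which Sox9 gave 2577 with Nell-1 and 3375 with PBS. Fibroblast and mesenchymal markers were above the median for 7 of 8 genes, with sums of 153308 with Nell-1 and 174446 with PBS. Markers of other cells were mostly below it: endothelial markers passed in 0 of 5 cases, against 1 of 4 measured for hepatocytes, 1 of 4 for adipocytes, 2 of 5 for skeletal muscle and 2 of 4 for haematopoietic cells. Their sums were 637.3 with Nell-1 and 669.1 with PBS for hepatocyte, 70.8 with Nell-1 and 113.0 with PBS for adipocyte, and 303.3 with Nell-1 and 529.9 with PBS for muscle markers. Endothelial markers summed to 67.1 with Nell-1 and 197.1 with PBS, and haematopoietic ones to 517.2 with Nell-1 and 605.0 with PBS. All 5 endothelial genes lay below the median signal, where ratios varied widely over the whole array. Above the median signal, the muscle gene Des (-1.29) was the only marker of these other cells past 1.5-fold. No marker was at 0. Their part in the IGF values was not tested.

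Igf1 encodes IGF-I and was read by 4 probe sets, all above the median signal, which disagreed in direction. Its brightest, 1452014_a_at, measured 899.7 with Nell-1 and 731.6 with PBS, a log2 ratio of 0.30. Probe set 1419519_at measured 337.1 with Nell-1 and 266.2 with PBS, a log2 ratio of 0.34. Probe set 1437401_at was nearly equal, at 460.3 with Nell-1 and 464.6 with PBS. Probe set 1434413_at was the reverse of the first pair, at 287.4 with Nell-1 and 415.5 with PBS, a log2 ratio of -0.53 that lay just short of 1.5-fold. The 4 probe sets came from 4 source sequences, and their ratios spanned 0.87 on the log2 scale. Their mean was 0.02.

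Igf2, the gene of the fetal growth factor IGF-II, showed nearly equal signals. Its brightest probe set, 1448152_at, measured 1482 with Nell-1 and 1504 with PBS, a log2 ratio of -0.02. The other, 1415931_at, lay below the median signal, at 27.3 with Nell-1 and 32.9 with PBS. In that range of signal the robust SD of the log2 ratios, computed over all probe sets from their median absolute deviation, was 1.49, so the second value adds little.

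Igf1r encodes the signalling receptor and none of its 5 probe sets passed 1.5-fold. The brightest, 1428967_at, measured 1142 with Nell-1 and 980.2 with PBS, and 1452982_at, designed from the same source sequence, measured 1052 with Nell-1 and 931.2 with PBS. Their log2 ratios were 0.22 and 0.18. Probe set 1426565_at measured 907.7 with Nell-1 and 887.2 with PBS, and its partner 1452108_at measured 73.6 with Nell-1 and 70.5 with PBS. Those log2 ratios were 0.03 and 0.06. Only 1446303_at was lower with Nell-1, at 85.9 against 104.3 with PBS, a log2 ratio of -0.28 where the robust SD of all probe sets of like signal was 0.62. Igf2r, the clearance and sorting receptor, was measured at 1245 with Nell-1 and 1305 with PBS on 1424111_at. On 1424112_at it was at 1126 with Nell-1 and 1202 with PBS. Both Igf2r ratios, -0.07 and -0.09, were smaller than the robust SD of 0.28 in their signal range.

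Among the binding proteins, 11 probe sets lay above the median signal, of which 1 was higher by 1.5-fold, 5 were lower and 5 were neither, beside 5.97% higher and 8.48% lower among all probe sets above the median signal. Their median log2 ratio was -0.48, beside -0.03 for all probe sets above the median signal, but 5 of the 11 were Igfbp4 probe sets. By brightest probe set, Igfbp3 (0.03) and Igfbp5 (0.00) were nearly equal and Igfbp6 was at -0.41. Only Igfbp2 (-0.93) and Igfbp4 (-0.88) were lower by 1.5-fold. The 5 lower ones belonged to Igfbp2 and Igfbp4, so they describe 2 transcripts and not 5 independent changes.

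Igfbp2 encodes a binding protein that is abundant in fetal tissues, and its 1 probe set, 1454159_a_at, was 1.91-fold lower with Nell-1. It measured 1039 with Nell-1 and 1984 with PBS, a log2 ratio of -0.93. Its mean signal put it in the ninth of 10 equal bins, from 652.6 to 1707, where the robust SD was 0.28. In that bin 2.24% of probe sets were at least 1.5-fold lower, and 0.377% had a ratio as low as that of Igfbp2 or lower. With no second probe set, the value has no check within the array.

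Igfbp4, the binding protein that PAPP-A cuts when IGF is bound, was lower on all 5 of its brighter probe sets, those past the median signal. Of the 5, 4 passed 1.5-fold, though centring on the poly-A spike-ins turned 1423757_x_at to 0.01. The brightest, 1437405_a_at, measured 946.7 with Nell-1 and 1741 with PBS, a log2 ratio of -0.88. Its partner from the same source sequence, 1437406_x_at, measured 606.1 with Nell-1 and 1694.5 with PBS, which is 2.80-fold lower. The x in such a name marks probes that may also bind other transcripts, and s marks probes shared between transcripts. A second pair read the gene through another source sequence. There 1423756_s_at measured 434.6 with Nell-1 and 708.5 with PBS, a log2 ratio of -0.70, and 1423757_x_at measured 491.6 with Nell-1 and 686.4 with PBS, a log2 ratio of -0.48 that did not reach 1.5-fold. From the third source sequence, 1421992_a_at measured 145.6 with Nell-1 and 257.5 with PBS, 1.77-fold lower. The remaining probe set of that source, 1421991_a_at, lay below the median signal and went the other way, at 18.5 with Nell-1 and 11.9 with PBS. Its log2 ratio of 0.64 compares with a robust SD of 2.23 at that signal. The direction above the median signal was therefore shared by all 3 source sequences. Of 276 genes that had 5 or more probe sets this bright, 0.725% had 4 or more that were 1.5-fold lower, a count framed after the Igfbp4 values were seen.

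**Figure D2:**
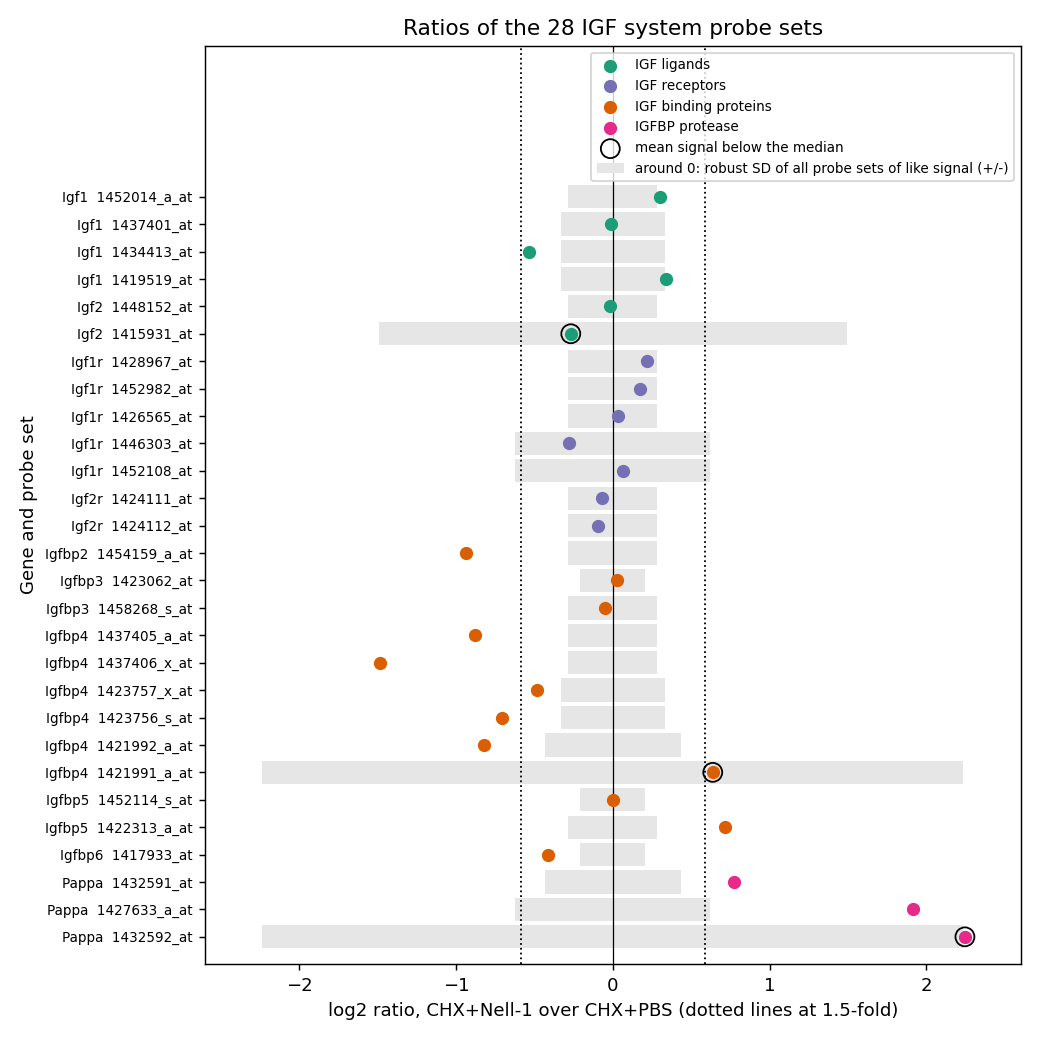
Log2 ratio of CHX+Nell-1 over CHX+PBS for each of the 28 probe sets, coloured by role, with dotted lines at 1.5-fold. Grey bars show, around 0, the robust SD of the log2 ratios of all probe sets in the same of 10 signal bins, and rings mark the 3 probe sets with a mean signal below the median; with signals as deposited, the 5 unringed Igfbp4 points lie left of 0 and outside their grey bars, and the 3 Pappa points lie right of 0.

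Igfbp5 encodes a binding protein of bone and cartilage matrix, and its 2 probe sets gave different answers. The brightest, 1452114_s_at, measured 28061 with Nell-1 and 28043 with PBS, a log2 ratio of 0.00. The other, 1422313_a_at, measured 2064 with Nell-1 and 1258 with PBS, 1.64-fold higher, and 1.13% of probe sets in its signal bin had a ratio as high or higher. Taking the brightest probe set not marked s would therefore add Igfbp5 to the genes that were 1.5-fold higher. Its chromosomal neighbour Igfbp2 was 1.91-fold lower in the same RNA.

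Igfbp3, the main carrier of IGF in blood, was nearly equal on both of its probe sets. Probe set 1423062_at measured 1792 with Nell-1 and 1758 with PBS. Probe set 1458268_s_at measured 795.5 with Nell-1 and 822.0 with PBS. The log2 ratios were 0.03 and -0.05. Igfbp6, which binds IGF-II more tightly than IGF-I, measured 5702 with Nell-1 and 7598 with PBS on 1417933_at. That is 1.33-fold lower, short of 1.5-fold, with a log2 ratio of -0.41 in the brightest bin, where the robust SD was 0.21 and 3.24% of probe sets had a ratio as low or lower.

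Pappa was higher with Nell-1 on all 3 of its probe sets. The brightest, 1432591_at, measured 224.1 with Nell-1 and 131.0 with PBS, 1.71-fold higher. In its bin, from 121.4 to 281.6, the robust SD was 0.43 and 3.57% of probe sets had a ratio as high or higher. The second, 1427633_a_at, measured 133.2 with Nell-1 and 35.3 with PBS, a log2 ratio of 1.92, and it was above the median signal on the CHX+Nell-1 array only. The third, 1432592_at, comes from the same source sequence as the brightest and was dimmer than the median on each array, at 23.1 with Nell-1 and 4.88 with PBS. Ratios of such low signals vary widely, with a robust SD of 2.23 in that bin, so the size of the Pappa difference is best read from the brightest probe set.

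**Figure D3:**
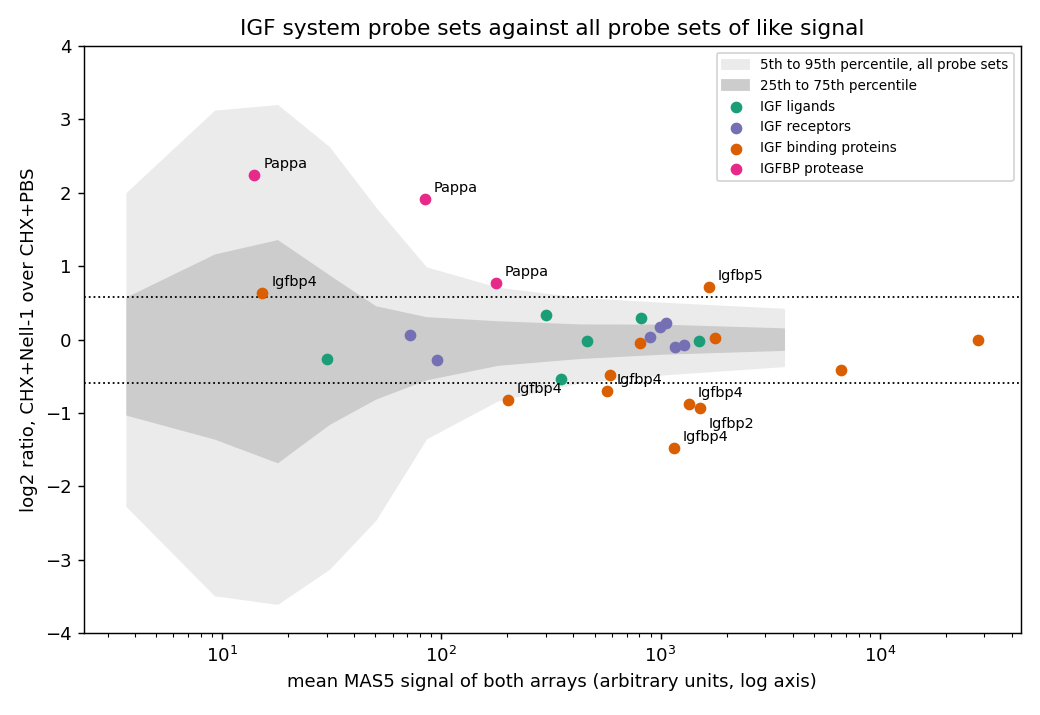
Log2 ratio of CHX+Nell-1 over CHX+PBS against mean MAS5 signal (log axis) for the 28 IGF system probe sets, coloured by role; grey bands give the 25th to 75th and 5th to 95th percentiles of all probe sets in 10 signal bins, drawn at each bin's median signal. Names mark probe sets past 1.5-fold (dotted lines), and those of Igfbp2, Igfbp5 and the brightest Igfbp4 and Pappa probe sets lie outside the wider band.

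The number of genes past 1.5-fold changed with one other scaling. With the ratios centred on the poly-A spike-ins, which adds 0.49 to every log2 ratio, Igfbp2 was at -0.44 and the brightest Igfbp4 probe set at -0.38, neither past 1.5-fold, and 1437406_x_at of Igfbp4 at -0.99 was the only one of the 25 still 1.5-fold lower. With the same centring Igf1 (0.79) and Igf1r (0.72) joined Pappa (1.27) among the genes that were 1.5-fold higher on their brightest probe sets. Among all probe sets above the median signal, 36.2% were then 1.5-fold higher and 2.22% lower. Igfbp6 was then at 0.08, so its direction also turned. A single shift leaves the differences between members as they were.

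Among the genes above the median signal, 4.56% were at least 1.5-fold higher and 7.53% lower on their brightest probe sets. The counts in the surrounding pathway, also by brightest probe set, are read against that. Of 14 further carriers and regulators 12 were measured and 7 lay above the median signal. None of the 7 passed 1.5-fold on its brightest probe set, with a median log2 ratio of -0.06. Among probe sets above the median signal, 1 of 4 for Igf2bp1 was higher and 1 of 2 for Igf2bp3 was lower. On the whole array 5.97% of such probe sets were higher and 8.48% lower. Pappa2, Stc2 and Igfbp1 were singled out from this list after their values were seen. Pappa2, a related protease, measured 814.0 with Nell-1 and 1022 with PBS, a log2 ratio of -0.33, and Stc2, a stanniocalcin that inhibits PAPP-A, measured 335.1 with Nell-1 and 325.0 with PBS. Igfbp1, which lies next to Igfbp3 on chromosome 11, was below the median signal, at 1.51 with Nell-1 and 4.84 with PBS. Of 24 genes of the relay from receptor to PI3K and AKT, 22 were measured, all above the median signal. On the brightest probe set 1 passed 1.5-fold, downwards, and 21 did not, and the median log2 ratio was -0.06. Of the 5 Pik3ca probe sets above the median signal, 1 was 1.5-fold higher. The lower one was Irs2, an adaptor that couples the receptor to PI3K, at 439.9 with Nell-1 and 764.5 with PBS on its only probe set, 1.74-fold lower. Its log2 ratio of -0.80 was less low than the -0.93 of Igfbp2. Irs2 therefore also fell short of 1.5-fold when centred on the poly-A spike-ins. Its relative Irs1 was singled out after its values were seen, at 4050 with Nell-1 and 3811 with PBS.

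The growth hormone axis, which controls Igf1 in many tissues, had 8 measured genes, and 1 of them passed 1.5-fold, downwards, beside 7.53% of all genes above the median signal. The median log2 ratio of the 8 was -0.28. The lower one was Socs1, an inhibitor of JAK kinases, at 72.1 with Nell-1 and 132.2 with PBS, 1.83-fold lower. Its log2 ratio of -0.87 was also less low than that of Igfbp2, so Socs1 fell short of 1.5-fold when centred on the poly-A spike-ins. In its signal bin the robust SD was 0.62 and 22.9% of probe sets were at least 1.5-fold lower. None of the 6 genes of mannose 6-phosphate sorting, the pathway that shares Igf2r, passed 1.5-fold on its brightest probe set, and their median was -0.18. For comparison, the median over all 11600 genes above the median signal was -0.03. Of the 3 Gnptab probe sets above the median signal, 1 was 1.5-fold higher. The gene Nell1 was at 6.48 with Nell-1 and 4.50 with PBS on its brightest probe set, and since the protein was added from outside this does not check the labels.

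**Figure D4:**
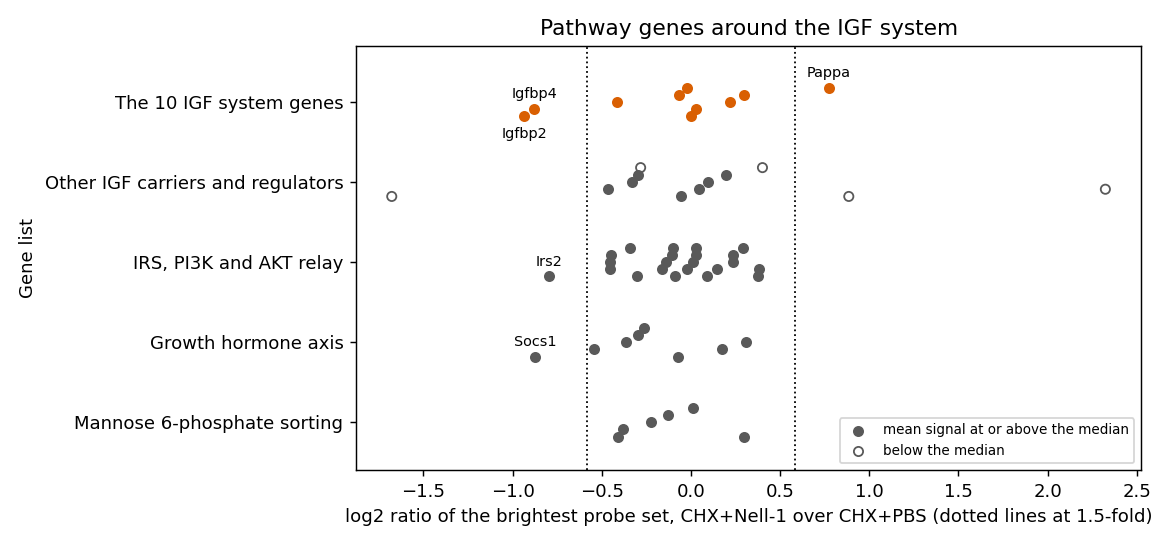
Log2 ratio of CHX+Nell-1 over CHX+PBS on the brightest probe set of each gene, for the 10 IGF system genes and 4 lists of pathway genes, with dotted lines at 1.5-fold, filled points at or above the median signal and open points below it. With signals as deposited, Pappa, Igfbp2, Igfbp4, Irs2 and Socs1 are the filled points outside the dotted lines.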

How the data were processed

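Total RNA from ATDC5 cells was measured on 2 Affymetrix mouse arrays, 1 per group. The intensities in the deposited table are linear MAS5 signals made by the authors with Affymetrix Expression Console, per the submitters' processing notes, with no version stated there. The 2% trimmed mean was 500.0 on both arrays. Detection calls were not used here, and the number of arrays limits the precision.

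Of 45037 non-control probe sets, the platform annotation gave 1 symbol to 34945, several to 932 and none to 9160, and no gene was named from the last groups. Each gene was taken by its brightest probe set, by mean signal. The log2 ratio of CHX+Nell-1 over CHX+PBS was computed in Python 3.11.15 with pandas 2.3.3 and counted at 1.5-fold, with no test, since p-values need replicates. The robust SD was taken in 10 equal bins of mean signal and mixes noise with real differences. Named genes were all members, Nell1, and up to 6 genes per pathway list above the median signal and past 1.5-fold. Pappa2, Stc2, Igfbp1, Irs1, Igf2bp1, Igf2bp3, Pik3ca, Gnptab, Tfrc, Des, the chondrogenic markers and Pitpnc1 fall outside this rule. They were named after their values were seen. The members and all gene lists were chosen with earlier results of these data known. Alternatives were median centring, loess (statsmodels 0.14.6), quantile normalization, centring on poly-A spike-ins, a constant or floor of 17.9, a 2-fold threshold, other signal filters, and other ways to represent a gene. The code was tested on simulated data.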

Additional observations from a re-analysis of the deposited data

How the results depend on the processing

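With 1 array per group, no replicate could be left out, and no call here carries a test. No paired analysis was possible because each group holds 1 array. Of the 25 probe sets above the median signal 3 were 1.5-fold higher and 5 lower, and of the 10 genes 1 was higher and 2 lower. Median centring, loess, quantile normalization, an added constant and a floor gave these same counts, and so did the mean over a gene's probe sets for the genes. Centring on the poly-A spike-ins gave 7 probe sets higher and 1 lower, beside 36.2% higher and 2.22% lower among all probe sets above the median signal. By genes it gave 3 higher and 0 lower, and no whole-array share of genes is given for that centring. Both follow from the construction of the shift, which moved 22 of the 28 ratios by more than the robust SD of their signal range. The 2-fold threshold left 1 probe set higher (Pappa 1427633_a_at) and 1 lower (Igfbp4 1437406_x_at), and 0 genes in either direction. That Pappa probe set was above the median signal on the CHX+Nell-1 array only. No whole-array share at 2-fold is given here, so these 2-fold counts have no background beside them. Without a signal filter 5 probe sets were higher, beside 17.5% of all probe sets. Requiring the median signal on both arrays left 2 higher, and no whole-array share is given for that filter. Without probe sets marked s, 2 genes were higher, Igfbp5 beside Pappa. The 8 probe sets above the median and past 1.5-fold kept their sign under the 6 signal alternatives, which says little. A constant or floor cannot turn a sign, and the spike-in shift of 0.49 is smaller than 0.585, the log2 of 1.5-fold. Under that shift Igfbp2 and 1437405_a_at, 1423756_s_at and 1421992_a_at of Igfbp4 were no longer past 1.5-fold. Under the floor of 17.9 the third Pappa probe set was at 0.37 and the dimmest Igfbp4 one at 0.05, so neither passed 1.5-fold.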

Other observations

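Besides Igfbp4, only Pitpnc1, which encodes a phosphatidylinositol transfer protein, had 4 or more probe sets at least 1.5-fold lower among the 276 genes that had 5 or more bright ones. For Pitpnc1 it was 7 of 8, with 182.2 on the CHX+Nell-1 array and 283.0 on the CHX+PBS array for the brightest. It was named after its values were seen, and its ratio has no replicate.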
